A study of Mus musculus with 3 samples.

Results

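Kit-positive cells selected as interstitial cells of Cajal were examined in the embryonic mouse hindstomach (the glandular part of the stomach) at E18.5. A cell was selected when it held at least 1 unique molecular identifier (UMI) of Kit, at least 3 of the 8 genes Kit, Ano1, Etv1, Prkcq, Gpr20, Kcnmb2, Col25a1 and Enpep, and 0 UMIs of Cpa3, a mast cell protease. Cells were first required to show 500 or more genes and to have no more than 20% of their UMIs in mitochondrial genes, and the choice took 973 of the 21602 cells that passed. Because measured values of these 9 genes chose the cells, their levels are given below as a description and were not tested. The data go against the label for part of the selected cells, so they are called Kit-selected cells throughout.

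Single cells were captured in droplets and the 3′ ends of their transcripts were counted in 3 libraries, 1 for each genotype. The YAP5SA library came from Shh-Cre;YAP5SA embryos, which carry a YAP form that stays active because its inhibitory phosphorylation sites are mutated. The Yap_KO library came from Shh-Cre;YaploxP/loxP embryos, with both Yap alleles floxed, and the control library from embryos with Shh-Cre alone. All 3 genotypes therefore carry Shh-Cre, which is active in stomach epithelium and not known to be active in interstitial cells of Cajal. Where recombination took place was not measured, and some of the cells described here lie in epithelial clusters. How many embryos a library pools is not stated in the sources used here. With 1 library per genotype there is no replicate of a genotype, no test between genotypes was made, and the intervals given cover counting error only.

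Interstitial cells of Cajal are the pacemaker cells of the gut wall. They arise from the same mesenchyme as smooth muscle, depend on the receptor tyrosine kinase KIT and its ligand from neighbouring cells, and form networks among the muscle layers and around the nerve plexus. Release of calcium from their stores opens the chloride channel ANO1, and the resulting slow waves pass to smooth muscle. ETV1, an ETS transcription factor stabilised by KIT signalling, maintains the identity of these cells in mice and of the gastrointestinal stromal tumours that derive from their lineage.

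The 21602 cells held 65112821 UMIs in the YAP5SA library, 39669344 in the Yap_KO library and 48301308 in the control library, with medians per cell of 5255, 5021 and 4949.5 UMIs in that order. The Kit-selected cells were deeper than the rest. Their median was 8607 UMIs in YAP5SA, 7296 in Yap_KO and 8241 in control, against 5139, 4927 and 4773.5 UMIs in the other cells of the same libraries. Scrublet's own threshold called 0 doublets in each library. Xist, transcribed in female cells, was at 0.422 CPM (UMIs of a gene scaled to a fixed total over the summed cells) in the YAP5SA selected cells, 308 CPM in the Yap_KO ones and 122 CPM in the control ones. The Y-linked Ddx3y lay between 69.8 and 75.5 CPM in all 3, so Xist differed between the libraries, and the makeup by sex cannot be told apart from genotype.

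Kit-selected cells made up 3.94% of cells in the YAP5SA library (356 of 9029, exact Clopper-Pearson 95% interval 3.55 to 4.36%), 4.36% in the Yap_KO library (227 of 5201, 3.83 to 4.96%) and 5.29% in the control library (390 of 7372, 4.79 to 5.83%). The order of the libraries was different after a random thinning. After every cell was thinned to 2000 UMIs, the rule took 1.34% of YAP5SA (1.09 to 1.62%), 2.03% of Yap_KO (1.62 to 2.50%) and 1.67% of control cells (1.36 to 2.02%). The intervals of Yap_KO and control overlap, as do those of control and YAP5SA. In the same cells before thinning the shares were 4.48%, 5.23% and 6.08%. The thinning left out 3669 cells with fewer than 2000 UMIs. The same rule also took cells from a type that should lack these transcripts together. Of cells with at least 2 UMIs each of 3 or more of the macrophage genes C1qa, C1qb, Csf1r, Tyrobp and Laptm5, the rule took 5.52% in YAP5SA, 2.71% in Yap_KO and 3.62% in control. The median depth of those macrophages was 9521, 8379.5 and 5718 UMIs. The share of selected cells is therefore read as no measure of how frequent interstitial cells of Cajal were.

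To see how the selected cells fall by genes that the rule did not use, all cells were clustered on their transcriptomes with the 8 rule genes and Cpa3 left out. Of the 973 selected cells, 524 fell into 1 of 29 clusters: 181 YAP5SA, 144 Yap_KO and 199 control cells. The genes that led this cluster of 1025 cells, once the rule genes were read again, were Enpep, Kcnmb2, Kcnip4, Gpr20, Col25a1, Sfrp4, Frmpd4, Col23a1, Etv1 and Kit. All 6 marker genes of the label (Kit, Ano1, Etv1, Gpr20, Kcnmb2 and Enpep) exceeded the mean over the remaining clusters at least 2-fold. The cluster is called ICC-like. That name rests on genes of the rule, read in the cluster that held the most selected cells, so it is a description and no independent check of the label. Of the 10 leading genes, Kcnip4, Sfrp4, Frmpd4 and Col23a1 were not used by the rule. The other 449 selected cells were spread over other clusters. The largest groups were 76 cells in a smooth muscle cluster led by Actg2 and Cnn1 and 54 in an epithelial cluster led by Clic3 and Msln, all 54 from the YAP5SA library. A further 35 fell in a fibroblast cluster led by Clec3b, 32 in a gastric epithelial cluster led by Tff1, 30 in a neuron cluster led by Cartpt and Prph, and 25 in a cluster led by Ins2, Pf4 and C1qa.

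The number of rule genes detected separated these groups. Of Kit-positive, Cpa3-negative cells with 1 rule gene, 2.25% lay in the ICC-like cluster, and of those with 2, just outside the threshold, 5.79% did (54 of 932). Just inside it, among cells with 3 rule genes, 22.6% did (93 of 412), and with 4 genes 54.1% (105 of 194). From 5 genes upwards 88.8% did (326 of 367, 85.2 to 91.9%). The jump between 4 and 5 genes was seen in each library. Among cells with 3 genes the share in the cluster was 18.8% in YAP5SA (13.0 to 25.7%), 40.2% in Yap_KO (30.4 to 50.7%) and 15.5% in control (10.2 to 22.2%). The Yap_KO selection thus held the largest share of ICC-like cells at the threshold. With 1 library per genotype, this cannot be told apart from a difference between libraries. Over all cells with 3 genes the summed Kit level was 91.5 CPM in YAP5SA, 115 in Yap_KO and 102 in control, against 92.8, 109 and 113 CPM in the Kit-positive cells just outside, and Ano1 was at 115, 49.5 and 91.4 CPM against 110, 24.3 and 49.7 CPM.

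**Figure D1:**
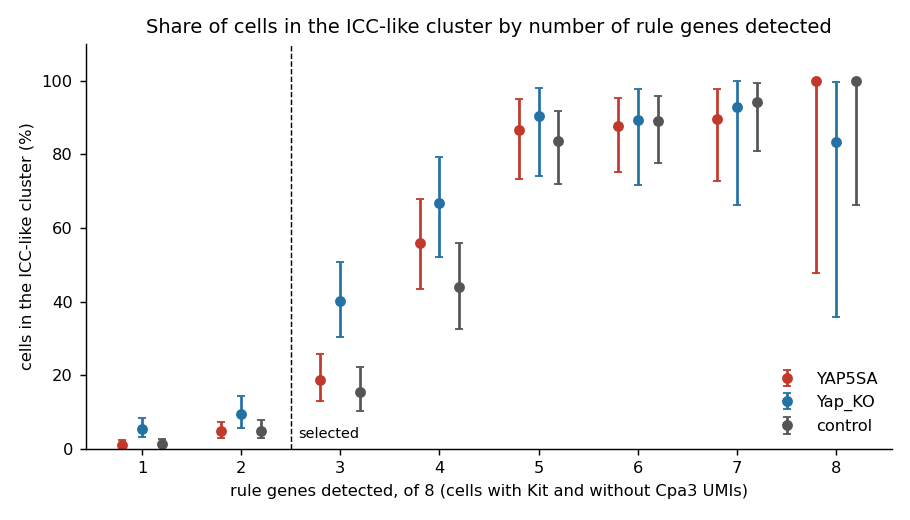
Share of Kit-positive, Cpa3-negative cells that lay in the ICC-like cluster (y axis, percent) by the number of the 8 rule genes detected (x axis), for the YAP5SA, Yap_KO and control libraries; bars are exact 95% intervals. Cells right of the dashed line were selected, and from 5 genes upwards the lowest share in a library was 83.3%.

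Depth differed across this split. Selected cells in the ICC-like cluster had medians of 5651 UMIs in YAP5SA, 5352.5 in Yap_KO and 6061 in control, close to those of whole libraries. Selected cells outside it had medians of 17747, 18827 and 14062 UMIs in the same order. Conversely, the cluster held 501 cells that the rule passed over, with a median of 3382 UMIs. Of these, 400 had no Kit UMI, and 90 of the 400 still showed 3 or more rule genes. The whole cluster, selected or not, was 3.77% of YAP5SA cells (3.38 to 4.18%), 6.46% of Yap_KO cells (5.81 to 7.16%) and 4.73% of control cells (4.26 to 5.24%), which is a different order of libraries from that of the selected cells. In the text below, levels are given for all selected cells and beside them for those in the ICC-like cluster. The split was made after the data had been seen, so no test was run on it. The clustering left out only the rule genes and Cpa3, so other genes compared across the split could help to form it.

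Kit, the receptor that defines the cells, stood in the ICC-like selected cells at 576 CPM in YAP5SA, 802 CPM in Yap_KO and 558 CPM in control. In the selected cells outside the cluster it stood at 72.7, 77.4 and 82.5 CPM in the same order, and in all other cells at 20.4, 25.3 and 24.8 CPM. Cells inside the cluster had a median of 3 Kit UMIs and those outside 1. Ano1, the calcium-activated chloride channel, had 605 CPM in YAP5SA, 412 CPM in Yap_KO and 593 CPM in control inside the cluster. Outside it the level was 131, 63.9 and 85.8 CPM, and in the other cells 67.6, 28.2 and 40.8 CPM. Ano1 thus had the shallowest contrast of the 8 genes in the YAP5SA library, 8.95-fold between ICC-like selected cells and other cells. Etv1 stood at 362 CPM in YAP5SA, 398 CPM in Yap_KO and 362 CPM in control inside the cluster. Its level outside was 40.0, 142 and 51.3 CPM, and the Yap_KO value there was the highest of the 3.

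Of the remaining rule genes, Enpep and Kcnmb2 stood furthest above the other cells in each library. Enpep, a membrane aminopeptidase that cleaves angiotensin, stood at 298 CPM in YAP5SA, 183 CPM in Yap_KO and 313 CPM in control ICC-like selected cells, against 5.27, 3.93 and 6.83 CPM in the other cells. Kcnmb2, a beta subunit of the large-conductance potassium channel, stood at 188, 197 and 146 CPM, against 2.93, 4.02 and 4.4 CPM. Gpr20, an orphan receptor coupled to inhibitory G proteins, stood at 129, 219 and 198 CPM, against 3.66, 7.27 and 8.25 CPM. Col25a1, a transmembrane collagen, reached 425, 389 and 321 CPM, against 21.0, 31.9 and 24.8 CPM. Prkcq, the theta isoform of protein kinase C and a known marker of these cells, was the least abundant at 73.0, 74.8 and 66.1 CPM, against 2.62, 2.90 and 3.83 CPM. It was seen in 27.3% of the 524 cells, whereas Etv1 was seen in 77.5% and Ano1 in 73.7%. Ano1 detection was lower in Yap_KO, at 54.2% of ICC-like selected cells, than in YAP5SA (80.7%) or control (81.4%).

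**Figure D2:**
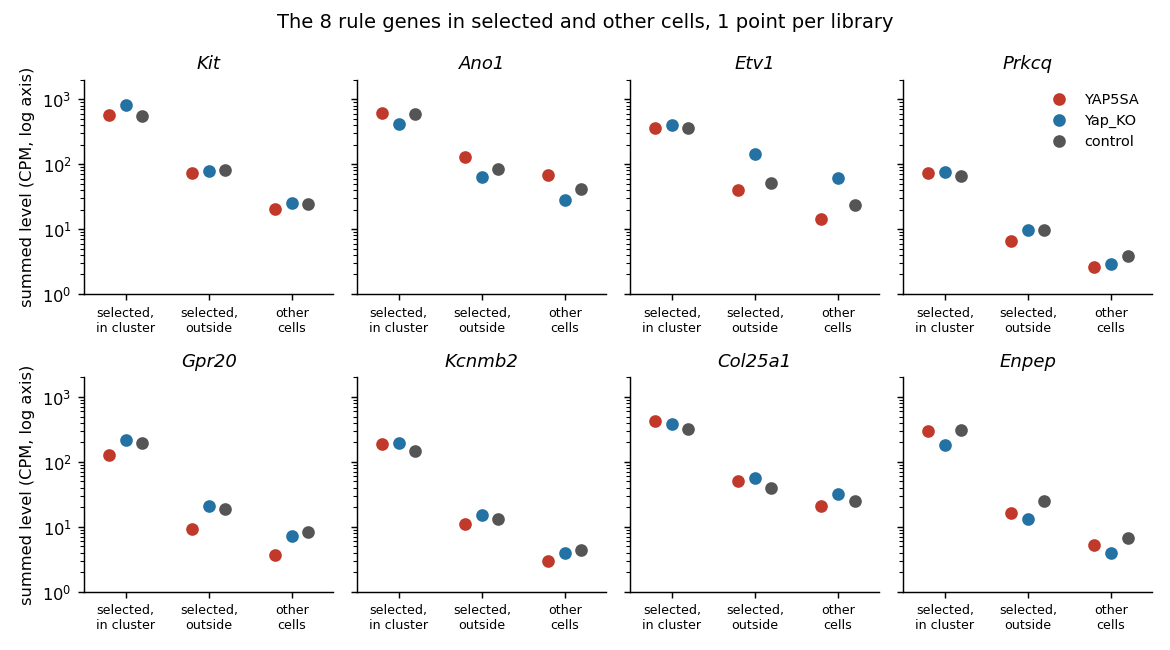
Summed level (y axis, CPM, log scale) of the 8 rule genes in selected cells inside the ICC-like cluster, selected cells outside it and all other cells, 1 point for each of the YAP5SA, Yap_KO and control libraries. Every gene was highest inside the cluster and lowest in the other cells in all 3 libraries, which the rule itself favours.

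Genes that the rule did not use were compared between the selected cells and all other cells of the same library. Counts were summed per library and class, and edgeR's quasi-likelihood test was run over the 3 libraries with library as a block. A gene was called at a Benjamini-Hochberg adjusted p under 0.05 and at least a 2-fold change. Of 22573 genes tested, 114 were higher in the selected cells (0.505%) and 300 were lower (1.33%). The median log2 difference over all genes was -0.01. Only 16 of the higher genes reached 50 CPM in the selected cells of every library. In the ICC-like selected cells, 92 of the 114 stood at least 2-fold above the other cells in all 3 libraries, and in the selected cells outside the cluster 0 of 114 did. Because the clustering could use these 114 genes, it favours that contrast, which is a description only. Values that follow are log2 differences, selected minus other cells, with edgeR's adjusted p. The value after ± is a standard error derived from edgeR's quasi-likelihood F statistic, whose dispersion is moderated across genes. It is not the spread of the differences in the 3 libraries.

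Calcium handling and excitability supplied several of the most changed genes. Kcnip4, a calcium-binding partner of Kv4 potassium channels, stood at 137 CPM in YAP5SA, 405 CPM in Yap_KO and 182 CPM in control selected cells, against 14.8, 92.4 and 31.5 CPM in the other cells (2.50 ± 0.23, adjusted p = 0.0106). Its level was highest in the Yap_KO library in both classes, and inside the ICC-like cluster it reached 513, 1088 and 560 CPM. The call was lost without the control library (Kcnip4 adjusted p = 0.0753), although the difference was then 2.54. Atp2a3, the SERCA3 pump that refills calcium stores, was at 95.4, 126 and 135 CPM against 17.4, 32.7 and 32.5 CPM (2.04 ± 0.11, adjusted p = 2.11e-05). Cacna1d, the pore of an L-type calcium channel that opens at low voltage, was at 76.6, 117 and 86.0 CPM against 22.3, 29.9 and 38.6 CPM (1.52 ± 0.15, adjusted p = 0.00201). Slc12a2, the cotransporter NKCC1 that loads cells with chloride, was at 62.3, 105 and 84.7 CPM against 34.7, 42.0 and 28.3 CPM (1.14 ± 0.13, adjusted p = 0.00239). For Kcnip4, Atp2a3, Cacna1d and Slc12a2 the lowest selected-cell value was above the highest value in other cells. How many of all genes tested do so was not counted, so this is a description only.

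On the list of 28 calcium, chloride and store genes of pacemaking, 3 were higher (Slc12a2, Cacna1d and Atp2a3) and 0 lower, with a median log2 difference of 0.19. Several genes known for pacemaking were not called. Slc8a1, the sodium-calcium exchanger, differed by 0.43 ± 0.08 (adjusted p = 0.0167), under the 2-fold limit. Cacna1h, a T-type calcium channel, had 12.2, 30.3 and 18.1 CPM in the selected cells against 11.1, 38.4 and 21.3 CPM in the others. Itpr1, the store release channel, had 51.1, 46.6 and 61.0 CPM against 36.9, 40.2 and 43.7 CPM.

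Among 28 receptors and cGMP pathway genes through which nerves reach these cells, 4 were higher and 0 lower, with a median of 0.19. Chrm3, the M3 muscarinic acetylcholine receptor, was at 100, 238 and 175 CPM in the YAP5SA, Yap_KO and control selected cells against 23.5, 88.2 and 52.9 CPM in the others (1.63 ± 0.12, adjusted p = 0.000244). Pde3a, a phosphodiesterase inhibited by cGMP, was at 130, 144 and 136 CPM against 46.0, 61.2 and 68.8 CPM (1.13 ± 0.10, adjusted p = 0.000624). Irag1, the substrate through which cGMP kinase curbs store calcium release, differed by 1.00 ± 0.10 (adjusted p = 0.000994). Edn3, an endothelin peptide, was low but higher, at 24.5, 30.6 and 20.7 CPM against 7.07, 5.32 and 9.31 CPM (1.68 ± 0.24, adjusted p = 0.00895). The nitric oxide receptor subunit Gucy1b1 (0.69 ± 0.11, adjusted p = 0.00763) and the cGMP kinase Prkg1 (0.49 ± 0.11, adjusted p = 0.0326) did not reach the 2-fold limit. In the ICC-like selected cells these genes stood higher, Prkg1 at 579, 435 and 425 CPM and Gucy1b1 at 84.7, 74.8 and 98.4 CPM.

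The transcription factors and surface proteins known from the lineage were partly raised. Foxf1, a forkhead factor of gut mesenchyme, was at 71.3, 100 and 115 CPM in the YAP5SA, Yap_KO and control selected cells against 33.5, 39.6 and 58.2 CPM in the others (1.02 ± 0.09, adjusted p = 0.000617). Elovl6, a fatty acid elongase, was at 111, 148 and 124 CPM against 36.0, 47.1 and 38.4 CPM (1.54 ± 0.08, adjusted p = 1.52e-05). Pcdh17, a protocadherin, differed by 1.07 ± 0.09 (adjusted p = 0.000459). These 3 were the higher ones of 18 tested on the list of other known genes of these cells, 0 were lower, and the list's median was 0.21. Barx1, the stomach mesenchyme homeobox gene, did not pass (0.43 ± 0.08, adjusted p = 0.0187), although it stood at 826, 570 and 738 CPM in the ICC-like selected cells against 178, 213 and 391 CPM in the other cells.

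Other abundant called genes have no fixed place in that biology. Col23a1, a transmembrane collagen like Col25a1, was at 93.3, 166 and 87.3 CPM in the YAP5SA, Yap_KO and control selected cells against 24.9, 39.3 and 33.9 CPM in the others (1.67 ± 0.13, adjusted p = 0.000386). Sdk1, a sidekick adhesion molecule, was the most abundant of the 16 at 258, 434 and 310 CPM, against 94.3, 162 and 183 CPM (1.10 ± 0.14, adjusted p = 0.00813). Its call was lost without the Yap_KO library (adjusted p = 0.0996). Sgcd, a sarcoglycan of the dystrophin complex, differed by 1.26 ± 0.10 (adjusted p = 0.000221), and Nav3, a microtubule-associated neuron navigator, by 1.25 ± 0.13 (adjusted p = 0.00112). Sobp, Cdo1 (the enzyme cysteine dioxygenase), Rabgap1l and Tox (an HMG-box nuclear factor) were the other 4, with differences from 1.02 to 1.29. All 16 stood higher in the ICC-like selected cells than in the selected cells outside the cluster in each library, which the clustering itself favours.

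**Figure D3:**
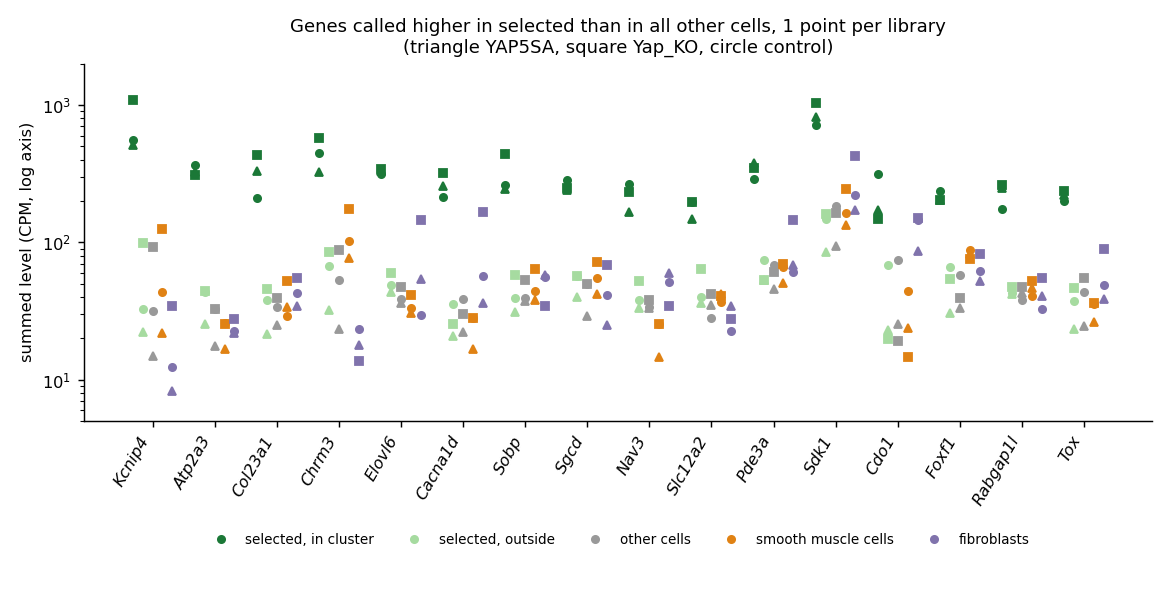
Summed level (y axis, CPM, log scale) of the 16 genes called higher in selected than in other cells with at least 50 CPM, in selected cells inside and outside the ICC-like cluster, other cells, smooth muscle cells and fibroblasts, 1 point per library. The cells inside the cluster stand highest for each gene and library, except for Cdo1 in Yap_KO (148 CPM inside the cluster, 151 CPM in the fibroblasts), and those outside it lie near the other cells. The clustering could use these genes, which favours this contrast.

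KIT signalling, contact and cell division lists gave few calls, beside 0.505% of all genes higher and 1.33% lower. Counts near those shares in lists of this size are no result about the pathways. Of 28 genes of KIT signalling and its ETS feedback 0 were higher and 1 was lower, the blood cell phosphatase Ptpn6 (-1.15 ± 0.16, adjusted p = 0.00436), with a list median of 0.08. The feedback inhibitor Spry4 had 24.7, 36.3 and 29.9 CPM in YAP5SA, Yap_KO and control selected cells against 14.5, 12.2 and 16.6 CPM in the others, and 57.7, 58.7 and 66.8 CPM in the ICC-like ones. The ligand gene Kitl had 52.1, 94.4 and 62.3 CPM against 31.9, 68.7 and 36.1 CPM (edgeR 0.54 ± 0.10, adjusted p = 0.0125). Gap junction and adhesion genes had 0 called of 22 in either direction, and connexin 43 (Gja1) differed by 0.60 ± 0.24 (adjusted p = 0.296). DNA replication and mitosis genes had 0 called of 30, with a median of 0.40, and the proliferation marker Mki67 had 72.2, 90.1 and 70.0 CPM against 60.4, 66.1 and 54.6 CPM. At an unadjusted p under 0.05, 1630 genes were higher and 2371 lower over the whole table.

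Lower genes were led by products of other lineages. Of the 300 lower genes, 82 stood at least 2-fold below the other cells in the ICC-like selected cells of all 3 libraries. In the selected cells outside the cluster 11 did, a contrast that the clustering itself favours. Of 11 blood markers 7 were lower, of 10 markers of enteric glia and neural crest 5, of 10 fibroblast markers 3 (Dcn, Dpt and Pi16) and of 6 erythroid genes the 4 haemoglobins. Dcn, the proteoglycan decorin, was at 143, 78.0 and 301 CPM in the YAP5SA, Yap_KO and control selected cells against 320, 139 and 746 CPM in the others (-1.23 ± 0.09, adjusted p = 0.000221). The mast cell list (5 of 6 tested lower) follows from the rule, which bars cells with Cpa3 from the selected cells only, and is no result. Neuron, epithelial, endothelial, pericyte and mesothelial lists had 0 genes called in either direction, with medians of 0.19, -0.26, 0.39, 0.05 and 0.02. The 7 genes of melanoblasts, another Kit-dependent lineage, summed to 24.9, 17.4 and 13.0 CPM in the selected cells against 36.3, 18.0 and 14.5 CPM in the others. Inside the ICC-like cluster they summed to 37.0, 33.4 and 18.8 CPM. Of the 2 tested 0 were called in either direction. Tyrp1 was at 0 in the selected cells of all 3 libraries, and also in the other cells of control.

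Against smooth muscle cells, contractile genes were lower in the selected cells, and several of the genes above were higher again. Smooth muscle cells were those with 0 Kit UMIs and at least 5 of Actg2, Myh11, Des, Cnn1, Synpo2, Smtn, Lmod1 and Kcnmb1 at 2 or more UMIs, 480 YAP5SA, 755 Yap_KO and 764 control cells. Those 8 genes were not tested, and choosing cells by them favours other muscle genes in the smooth muscle class as well. In the edgeR comparison 210 of 16294 genes were higher (1.29%) and 270 lower (1.66%), with a median over all genes of 0.01. Of the higher genes, 21 reached 50 CPM in the selected cells of every library, and the 10 with the largest differences are named here. Atp2a3 stood at 95.4, 126 and 135 CPM in the YAP5SA, Yap_KO and control selected cells against 16.7, 25.5 and 25.7 CPM in smooth muscle cells (2.21 ± 0.10, adjusted p = 1.19e-05). Nav3 was at 64.2, 109 and 103 CPM against 14.5, 25.4 and 25.6 CPM (1.89 ± 0.10, adjusted p = 2.31e-05). Kcnip4 (1.91 ± 0.18), Cacna1d (1.75 ± 0.12), Elovl6 (1.67 ± 0.09), Cdo1 (1.46 ± 0.14), Col23a1 (1.39 ± 0.09) and the scaffold Iqgap2 (1.36 ± 0.11) were also higher, each with an edgeR adjusted p of 0.0027 or less. Epha3, an ephrin receptor, was at 64.8, 54.1 and 56.3 CPM against 18.6, 13.6 and 25.2 CPM (1.43 ± 0.16, adjusted p = 0.00149). Sfrp1, a secreted Wnt antagonist, was at 311, 395 and 367 CPM against 112, 102 and 160 CPM (1.35 ± 0.13, adjusted p = 0.00149). It did not pass against all other cells, where it stood at 173, 101 and 238 CPM, and was far higher in the ICC-like selected cells at 913, 1026 and 844 CPM.

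Lineage genes with low counts were also called in this comparison. Etv4, an ETS factor close to Etv1, had 11, 7.83 and 11.9 CPM in the YAP5SA, Yap_KO and control selected cells against 3.10, 2.76 and 2.11 CPM in smooth muscle cells (1.76 ± 0.27, adjusted p = 0.00449). Plat, the tissue plasminogen activator, differed by 1.04 ± 0.19 (adjusted p = 0.0126). Thbs4, a thrombospondin, was at 26.4, 3.92 and 8.53 CPM against 12.7, 1.14 and 1.11 CPM (1.43 ± 0.34, adjusted p = 0.0358), but at 35.8 CPM in the other cells of the YAP5SA library. Foxf1 (0.01 ± 0.13, adjusted p = 0.968) and Chrm3 (0.35 ± 0.10, adjusted p = 0.057), both called against all other cells, were not called against smooth muscle. Slc12a2, Pde3a and Irag1 were likewise not among the genes called higher than in smooth muscle cells. On the pacemaking list only Cacna1d and Atp2a3 were, and on the receptor and cGMP list only Edn3.

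Most of the lower genes named were muscle genes. Of the 16 contractile genes tested 7 were lower (Myl6, Tpm1, Cald1, Myocd, Flna, Csrp1 and Pgm5) and 0 higher, with a list median of -1.62. Tpm1, a tropomyosin, stood at 1289, 1132 and 1922 CPM in the YAP5SA, Yap_KO and control selected cells against 5090, 3836 and 4058 CPM in smooth muscle cells (-1.80 ± 0.20, adjusted p = 0.0132). Myocd, the coactivator that drives smooth muscle genes, fell by 1.23 ± 0.12 on the log2 scale (adjusted p = 0.000757). The calcium and potassium channel genes of muscle were lower too. Cacna1c, the main L-type calcium channel of smooth muscle, fell by 1.00 ± 0.13 on the log2 scale (edgeR adjusted p = 0.00341), beside Ryr2 (-1.03 ± 0.12, adjusted p = 0.00172) and Kcnma1 (-1.66 ± 0.14, adjusted p = 0.00109). The muscarinic receptor Chrm2 was lower by edgeR as well (-1.23 ± 0.11, adjusted p = 0.000554). Among lower genes with at least 50 CPM in smooth muscle cells of every library, the 10 lowest were Tnnt2, Fbxl22, Krt17, Asb2, Bves, Hspb6, Jph2, Myom1, Optc and Tpm1. All 10 lost their calls without the Yap_KO library, with the lowest adjusted p then 0.0543, for Myom1, while their log2 differences then lay between -1.72 and -2.56, and the totals were then 82 higher and 93 lower genes.

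Against fibroblasts more genes differed, but the selected cells outside the ICC-like cluster carried many of them. Fibroblasts were cells with 0 Kit and 0 Myh11 UMIs, at least 1 Pdgfra UMI, and at least 3 of Dcn, Lum, Col1a2, Col3a1 and Fbln1 at 2 or more UMIs. They numbered 325 in YAP5SA, 29 in Yap_KO and 241 in control, so the Yap_KO sum rests on few cells. Of 13443 genes 633 were higher (4.71%) and 405 lower (3.01%), with a median over all genes of 0.05. Of the 633, 116 stood at least 2-fold above fibroblasts in the ICC-like selected cells of all 3 libraries, and 209 did in the selected cells outside. Of the higher genes, markers of other cell types made up a share that the cluster split bears on: 9 of 12 epithelial, 9 of 10 endothelial, 6 of 10 neuron and 13 of 22 contractile genes were higher than in fibroblasts. The fibroblasts were required to hold 0 Myh11 UMIs and the selected cells were not. That favours higher contractile genes in the selected cells, so the contractile count is a description only. Without the YAP5SA library the counts were 295 and 263.

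Kcnip4 (3.84 ± 0.22, edgeR adjusted p = 8.07e-10) and Chrm3 (2.75 ± 0.23, adjusted p = 5.94e-08) were among the 10 highest of the 101 higher genes that reached 50 CPM in every library. Chrm3 had 100, 238 and 175 CPM in YAP5SA, Yap_KO and control selected cells against 18.0, 13.8 and 23.2 CPM in fibroblasts. Chchd10, a mitochondrial protein, was at 186, 223 and 156 CPM against 29.7, 20.6 and 23.2 CPM (2.70 ± 0.20, adjusted p = 2.41e-08), and at 236, 95.5 and 170 CPM inside the cluster. For the 4 neuronal genes among the 10 the picture was different. Pcsk1n, a neuroendocrine convertase inhibitor, was at 72.8, 339 and 108 CPM in all selected cells against 7.30, 20.6 and 11.6 CPM in fibroblasts, but at 8.11, 38.0 and 16.5 CPM inside the cluster. Sncg (gamma-synuclein), Stmn3 (a stathmin) and Uchl1 (a neuronal hydrolase) likewise stood at 57.5, 28.8 and 99.1 CPM or less inside it. The muscle genes Tagln and Actg2 were at 767, 489 and 538 CPM and at 630, 617 and 722 CPM inside the cluster, against 327, 255 and 449 CPM and 476, 454 and 677 CPM in fibroblasts. Ass1, an arginine synthesis enzyme, was at 217, 103 and 53.3 CPM in all selected cells and at 27.9, 21.9 and 13.5 CPM inside the cluster.

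Fibroblast matrix genes were lower over all selected cells. Of the 405 lower genes, 103 stood at least 2-fold below fibroblasts in the ICC-like selected cells of all 3 libraries, and 149 did in the selected cells outside. Of 23 collagen and matrix genes tested 14 were lower and 0 higher, with a median of -1.54. The fibroblasts were chosen by their counts of Dcn, Lum, Col1a2, Col3a1 and Fbln1. That choice itself favours lower matrix genes in the selected cells, so this count is a description only. Dpt, the matrix protein dermatopontin, was at 23.8, 27.4 and 129 CPM in YAP5SA, Yap_KO and control selected cells against 319, 530 and 860 CPM in fibroblasts (-3.52 ± 0.22, edgeR adjusted p = 1.33e-08), and at 22.5, 13.8 and 103 CPM inside the cluster. Spon2 (-2.96 ± 0.21), Plac9 (-2.76 ± 0.18), Tnfaip6 (-2.67 ± 0.21) and Mfap5 (-2.45 ± 0.19) were the next lowest among genes with at least 50 CPM in the fibroblasts of every library, with edgeR adjusted p of 3.16e-08 or less. Bmp4, a hedgehog-induced ligand of subepithelial fibroblasts, was at 27.2, 39.2 and 57.4 CPM against 121, 227 and 207 CPM (-2.16 ± 0.18, adjusted p = 6.02e-08). Lox, Serping1, Zim1 and C1qtnf7 completed the 10, with differences between -2.20 and -2.41. On the list for PDGFRA-positive interstitial cells, the neighbours of interstitial cells of Cajal, 4 of 6 tested were lower (Kcnn3, Cd34, Adamts5 and Dpt) and 0 higher. The fibroblasts were required to hold Pdgfra, which favours this count too.

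Signalling lists gave few calls against other cells and more against fibroblasts, as all genes did. Over all genes 0.505% were higher and 1.33% lower against other cells, and 1.29% and 1.66% against smooth muscle. Against fibroblasts the shares were 4.71% and 3.01%. Counts near those shares in lists this short are no result about a pathway. Hippo components had 0 of 20 called in each of the 3 comparisons, and YAP/TEAD targets had 0 of 22 against other cells, 1 lower of 22 against smooth muscle (Foxf2), and against fibroblasts 3 of 21 higher (Ccn2, Ajuba and F3) and 1 lower (Fjx1). Yap1 itself stood at 62.7 CPM in YAP5SA, 65.5 CPM in Yap_KO and 65.9 CPM in control selected cells, against 53.4, 41.3 and 52.4 CPM in the other cells (0.29 ± 0.10, edgeR adjusted p = 0.164). Whether the counted 3′ tags of Yap1 lie in the deleted part of the floxed gene or in the YAP5SA transgene is not given, so these counts do not check the genotype. Hedgehog response genes had 1 higher against other cells (Foxf1) and 5 of 15 lower against fibroblasts, among them Gli1, Boc, Gas1 and Bmp4. BMP and TGF-beta genes had 2 of 22 higher against other cells, among them Bmp5 (1.29 ± 0.25, adjusted p = 0.018), and against fibroblasts 1 higher and 3 lower, among them Bmp4 and Tgfb3. Notch genes had 0 of 13 called against other cells and 1 of 11 higher against fibroblasts (Dll4). IGF genes had 0 of 14 called against other cells, 1 lower against smooth muscle (Igfbp2) and 3 lower against fibroblasts (Igf1, Igfbp4 and Igfbp5). Wnt genes had 1 of 20 lower against other cells, the target Sp5. Against smooth muscle 1 of 16 was higher (Sfrp1) and 3 lower (Nkd1, Sfrp2 and Rspo3), and against fibroblasts 2 of 14 were lower (Sfrp2 and Fzd1). The inflammation list had 3 of 27 lower against other cells (Cxcl10, Ccl2 and Irf7), and against fibroblasts 2 of 23 higher (Lcn2 and H2-D1) and 5 lower (Cxcl1, Cxcl12, Ccl11, Il1r1 and Il33). Dissociation stress, glycolysis and oxidative phosphorylation genes had 0 called against other cells, with medians of -0.22, 0.01 and 0.07, and the glycolysis list had 1 higher against fibroblasts (Egln3).

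Markers of other cell types moved with the split between selected cells inside and outside the cluster. The clustering left out only the rule genes and Cpa3, so such markers could themselves place cells in clusters. Their sums inside and outside are therefore a description only. The 12 epithelial markers summed to 874 CPM in YAP5SA, 1152 CPM in Yap_KO and 909 CPM in control inside it, and to 7769, 14511 and 4629 CPM outside. The 10 neuron markers summed to 115, 344 and 198 CPM inside and to 632, 2930 and 998 CPM outside. Chrna3 was at 0 inside the cluster in YAP5SA. The 11 blood markers summed to 668, 303 and 249 CPM inside and 2174, 732 and 710 CPM outside, and the 10 endothelial markers to 114, 116 and 134 CPM inside and 396, 778 and 1270 CPM outside. The 24 smooth muscle genes summed to 13202, 9998 and 12564 CPM inside and to 17366, 25201 and 46397 CPM outside. Of the 449 selected cells outside the cluster, 187 held at least 3 epithelial markers with 2 or more UMIs each, 99 held 3 blood markers and 36 held 3 neuron markers, against 26, 4 and 0 of the 524 inside. The UMI limit in these cell counts was fixed, and median depth was 16031 UMIs outside and 5651.5 inside. That favours higher cell counts outside. Fibroblast and muscle markers were common on both sides. By the same measure 391 of the 524 cells inside held 3 fibroblast markers and 193 held 3 smooth muscle markers, against 426 and 341 of the 449 outside, and 464 inside and 442 outside held 3 markers of at least 1 other type, erythroid genes included. Scaled to depth, the list of 10 fibroblast markers summed to 7265.5 CPM in YAP5SA, 4184.9 in Yap_KO and 11304 in control inside. Outside, the sums were 5404.3, 2203 and 11665 CPM. The 8 pericyte markers were higher inside, where they summed to 405 CPM in YAP5SA, 429 CPM in Yap_KO and 364 CPM in control, against 225, 253 and 302 CPM outside. Haemoglobin and other erythroid genes summed to 6809, 14738 and 18700 CPM even inside the cluster, and to 40136, 21596 and 48200 CPM in the other cells. Removing the 6% of cells with the highest Scrublet scores took out 25 YAP5SA, 18 Yap_KO and 26 control selected cells. Against the remaining other cells 123 genes were then higher and 388 lower, 110 and 284 of them among the 114 and 300. The part of free RNA in these counts was not tested.

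**Figure D4:**
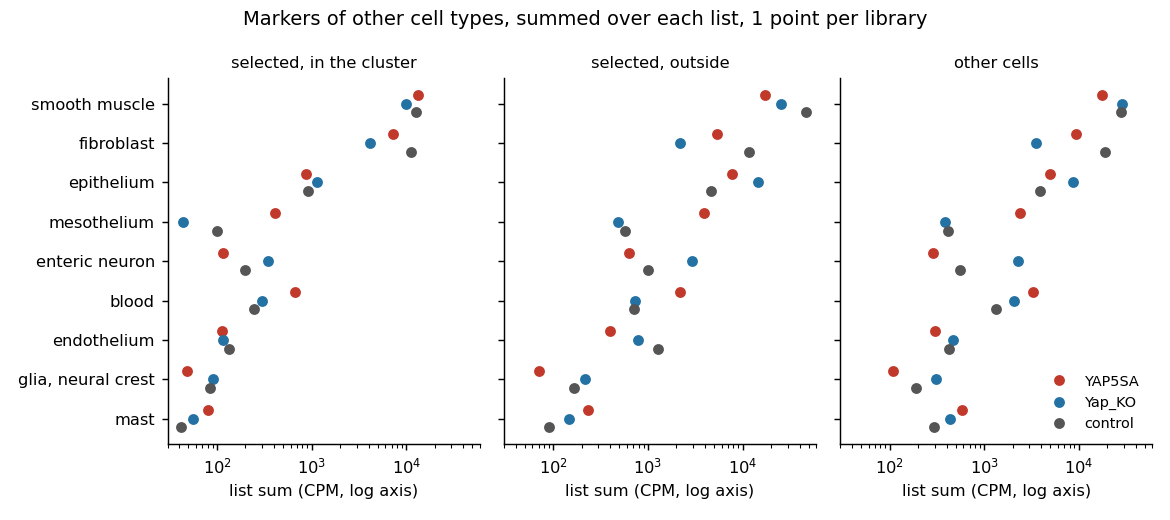
Summed level (x axis, CPM, log scale) of 9 marker lists of other cell types in selected cells inside the ICC-like cluster, selected cells outside it and all other cells, 1 point for each of the YAP5SA, Yap_KO and control libraries. Epithelial, neuron, blood and endothelial sums are lower inside the cluster than outside it in each library, whereas fibroblast sums overlap. The clustering could use these markers, which favours such differences.

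Genotypes were set side by side as ratios of summed CPM with exact conditional Poisson 95% intervals. Over all selected cells, 166 of 3545 genes were at least 2-fold higher in YAP5SA than in control (4.68%) and 103 lower (2.91%). A gene entered when either library reached 50 CPM, and the 2-fold limit was applied after 5 CPM had been added to both levels. Restricted to the ICC-like selected cells, 53 of 3897 were higher (1.36%) and 19 lower (0.488%). Among the 12 highest over all selected cells, most of them epithelial genes, were Upk3bl, Krt4, Clic3, S100a14, Pdzk1ip1, Grp, Wfdc2, Anxa8, Msln, Krt15 and Gprc5a. Krt4, a keratin of stratified epithelium, was at 387 CPM in YAP5SA and 6.19 CPM in control selected cells, a ratio of 62.6 (43.4 to 93.7), with 53.2 and 6.01 CPM inside the cluster and 188 and 15.6 CPM in the other cells. Wfdc2, a secreted protease inhibitor of epithelia, was at 1181 CPM in YAP5SA and 60 CPM in control, and at 206 and 55.6 CPM inside the cluster. Without the cells of highest Scrublet score the log2 ratio of Grp was 2.87 in place of 4.22.

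Among the 12 lowest in YAP5SA, the gastric gland products Pga5, Tff1, Clps, Bpifb1, Muc5b, Tff2 and Atp4b stood out. Pga5, a pepsinogen, was at 15.2 CPM in YAP5SA and 1719 CPM in control selected cells, and in the other cells of the same libraries at 64.0 and 2068 CPM. Inside the ICC-like cluster it was at 17.1 CPM in YAP5SA and 531 CPM in control, so a product of gland cells differed in the same direction there. Atp4b, a proton pump subunit, was at 0.422 CPM in YAP5SA and 58.2 CPM in control. The remaining 5 were Fabp4, Ccl21a, Clec3b, Pcp4 and Igfbp6, and of these Ccl21a and Igfbp6 had ratios of 0.960 (0.329 to 2.70) and 0.916 (0.545 to 1.52) inside the cluster. Epithelial markers thus moved with genotype in cells that are not epithelial by label, and their part in each ratio was not tested.

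In Yap_KO, 123 of 3694 genes were at least 2-fold higher than in control over all selected cells (3.33%) and 107 lower (2.90%). Inside the cluster 139 of 4152 were higher (3.35%) and 96 lower (2.31%). Gut hormone, nerve, acid-secreting and immune genes were the highest: Ghrl, Calca, H2-Aa, H2-Ab1, Smim38, Il1b, Atp4b, Tac1, Pla2g1b, Clps, H2-Eb1 and Grp. Ghrl, the hormone ghrelin, was at 155 CPM in Yap_KO and 6.83 CPM in control selected cells, a ratio of 22.6 (15.8 to 33.5), and at 48.3 and 6.01 CPM inside the cluster. The other cells held 327 CPM in Yap_KO and 47.9 CPM in control. Calca, which encodes the sensory neuropeptide CGRP, was at 136 CPM in Yap_KO and 5.76 CPM in control over all selected cells but at 9.21 and 12.8 CPM inside the cluster. Without the cells of highest Scrublet score its log2 ratio was 0.17 in place of 3.72, and that of Ghrl 2.03 in place of 3.75. With a limit of 10% mitochondrial UMIs, which left 225 of the 227 Yap_KO selected cells, the log2 ratio of Atp4b was 1.02 in place of 2.74 and that of Smim38 1.89 in place of 3.03. The lowest were endothelial, matrix and mesothelial genes: Ccl21a, Clec3b, Igfbp6, Slpi, Eln, Fbln5, Pcolce, Cldn5, Plac9, Col1a1, Serping1 and Upk3b. Col1a1, the main fibrillar collagen, was at 1322 CPM in Yap_KO and 6594 CPM in control, a ratio of 0.201 (0.194 to 0.207). It was at 2027 and 6528 CPM inside the cluster and at 1678 and 10151 CPM in the other cells. Both genotype comparisons share the control library. The log2 TMM factor, which is subtracted from each log2 ratio when it replaces scaling by total UMIs, was 0.18 for Yap_KO and -0.05 for YAP5SA, and with it Yap_KO had 87 genes higher and 156 lower.

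**Figure D5:**
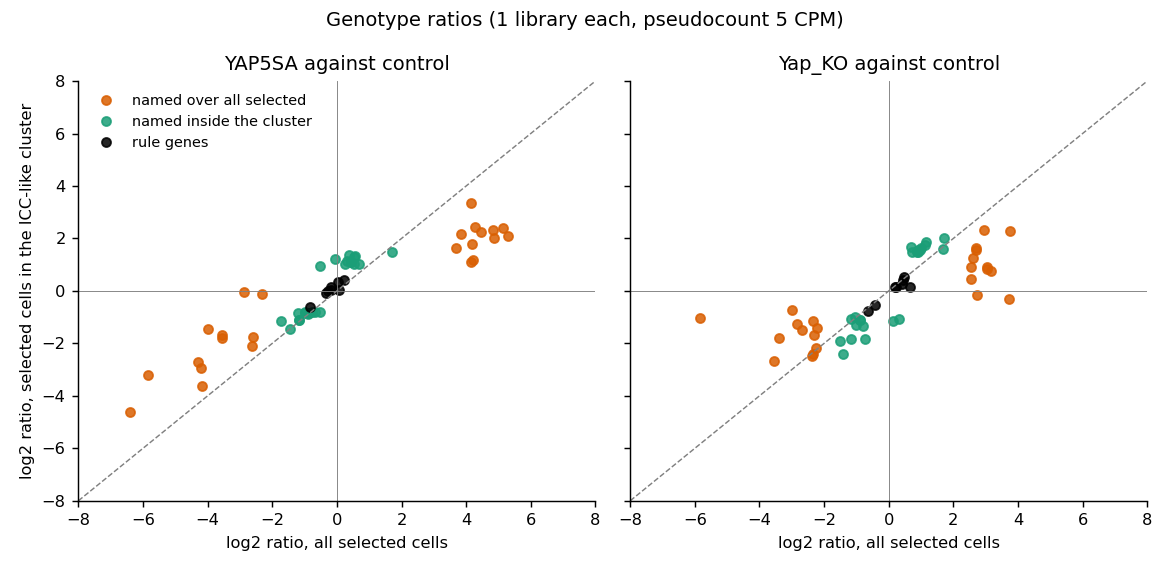
Log2 ratio to control (pseudocount 5 CPM, 1 library each) inside the ICC-like cluster (y axis) against that over all selected cells (x axis), for the YAP5SA and Yap_KO libraries, with the genes named over all selected cells, those named inside the cluster, and the 8 rule genes. Points named over all selected cells lie between the dashed line of equality and 0 for the most part, and the 8 rule genes lie within 2-fold of control inside the cluster.

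Genes of the cells' own identity were read beside all genes inside the cluster. Of all genes, 1.36% were 2-fold higher and 0.488% lower in YAP5SA, and 3.35% and 2.31% in Yap_KO. At such shares, counts of 0 in lists this short are no result about identity genes. In the ICC-like selected cells, 0 of the 8 rule genes were 2-fold higher or lower in YAP5SA or in Yap_KO. Kit was at 1.03 of the control level in YAP5SA (0.927 to 1.15) and 1.44 in Yap_KO (1.29 to 1.60). Ano1 was at 1.02 in YAP5SA (0.918 to 1.13) and 0.694 in Yap_KO (0.611 to 0.788), and Enpep was at 0.953 (0.822 to 1.10) and 0.584 (0.484 to 0.703). Gpr20 was lower in YAP5SA at 0.650 (0.527 to 0.80) and at 1.10 in Yap_KO (0.910 to 1.33). Etv1 was at 1.00 in YAP5SA (0.875 to 1.15) and 1.10 in Yap_KO (0.955 to 1.27). Because the rule requires Kit and other rule genes, these ratios are a description only. Of the 18 pacemaking genes with enough counts, 0 were past 2-fold in either direction in either genotype inside the cluster, with medians of 0.07 in YAP5SA and 0.30 in Yap_KO beside 0.05 and 0.08 over all genes. Receptor and cGMP genes had 0 of 10, and KIT signalling genes 0 of 16 in YAP5SA and 1 of 15 in Yap_KO, Pik3ca, which was higher at 154 CPM in Yap_KO and 74.4 CPM in control. Of the other known genes of these cells, 0 of 12 were past 2-fold in YAP5SA and 2 of 13 in Yap_KO, both higher, Pcdh17 at 182 CPM in Yap_KO and 78.1 CPM in control, and the insulin receptor Insr.

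Kcnip4 and Col23a1, both higher in selected than in other cells by the test above, had Yap_KO ratios of 1.95 (1.77 to 2.14) and 2.06 (1.76 to 2.41) inside the cluster. Their ratios in YAP5SA were 0.917 (0.820 to 1.02) and 1.55 (1.33 to 1.82). Kcnip4 also stood at 92.4 CPM in Yap_KO and 31.5 CPM in control among the other cells. Chrm3 was at 0.725 of control in YAP5SA (0.634 to 0.828) and 1.30 in Yap_KO (1.15 to 1.47). Kitl, the KIT ligand, was at 118 CPM in YAP5SA, 128 CPM in Yap_KO and 68.3 CPM in control inside the cluster. Contractile genes, 12 of 21 of which were 2-fold lower in YAP5SA over all selected cells (median -1.21), had 0 of 19 past 2-fold inside the cluster (median -0.03). In Yap_KO they had 3 of 21 lower over all selected cells and 0 of 19 inside. Of YAP/TEAD targets, 1 of 13 was 2-fold higher in YAP5SA inside the cluster, Igfbp3, at 148 CPM in YAP5SA and 69.8 CPM in control, and 0 of 10 in Yap_KO. Igfbp3 was also higher in the other YAP5SA cells, at 325 CPM against 84.3 CPM. Collagen and matrix genes had 1 of 21 lower in YAP5SA, Col14a1, and 6 of 21 lower in Yap_KO (Col14a1, Col1a1, Sparc, Col3a1, Eln and Fbln1).

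The largest ratios inside the cluster were also read among genes that stood at least 2-fold above the other cells in the library where they were higher. That choice was made after the data had been seen, and the genotype difference itself helps a gene to pass it. It also works against genes that are raised in the other cells of the same library. The genes named, and the counts below of those that moved alike in the other cells, are therefore a description only. Genes that passed and reached 50 CPM in either library were ranked after 5 CPM had been added to both levels. Enpp2, the lysophospholipase autotaxin, was at 27.0 CPM in YAP5SA, 11.5 CPM in Yap_KO and 83.4 CPM in control, a ratio of 0.324 (0.209 to 0.489) and 0.138 (0.0644 to 0.263). Gdf10, a BMP family ligand, was at 108 CPM in YAP5SA, 59.8 CPM in Yap_KO and 240 CPM in control, with ratios of 0.450 (0.362 to 0.557) and 0.249 (0.182 to 0.335). Cdo1, Fgl2 and Tmem158 were also among the 12 lowest in both, with ratios between 0.445 and 0.570. All 12 of the lowest in YAP5SA were lower in the other YAP5SA cells as well, 5 of them at least 2-fold, and 10 of the 12 lowest in Yap_KO were, 5 of them at least 2-fold. Gdf10 was at 0.183 of control in the other Yap_KO cells, lower than inside the cluster.

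Higher in the YAP5SA ICC-like cells were the tendon transcription factors Scx, at 54.1 CPM in YAP5SA and 18.0 CPM in control (3.00, 1.84 to 5.04), and Mkx, at 74.8 and 27.8 CPM (2.69, 1.81 to 4.08). Neither was higher in the other YAP5SA cells, where Scx was at 0.866 and Mkx at 0.976 of control. The imprinted gene Nnat, which encodes neuronatin, was at 613 CPM in YAP5SA, 221 CPM in Yap_KO and 264 CPM in control, a YAP5SA ratio of 2.32 (2.04 to 2.64), whereas in the other cells it was at 0.792 of control. Ddc, the enzyme that makes dopamine and serotonin from their precursors, led that ranking in YAP5SA at 3.19 (2.05 to 5.07), and it was at 3.17 (2.0 to 5.12) in Yap_KO. Igf2bp1, at 3.46 in YAP5SA, was not ranked there because it stood less than 2-fold above the other YAP5SA cells. Cdh3, Spsb4, Bpgm, Kcnq5, Lrba, Sestd1, Frs2 and Galnt18 completed the 12, with ratios between 1.97 and 2.79. Of these 12, 7 were also higher in the other YAP5SA cells, 0 of them 2-fold, and the limit against the other cells itself favours low counts there.

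In Yap_KO the highest inside the cluster were the netrin receptor gene Unc5c, at 175 CPM in Yap_KO and 39.1 CPM in control (4.48, 3.25 to 6.26), and the protease gene Adamts6, at 70.2 and 15.8 CPM (4.45, 2.67 to 7.69). Igf2bp1, Ttc14, Agtr1b, Dpyd, Akap5, Pias2, Nalf1, Ddc, Pcdh9 and Pnisr followed with ratios between 2.94 and 3.98. Of the 12, 10 were also higher in the other Yap_KO cells, and Nalf1 was the 1 that was 2-fold higher there, at 3.16 of control. Lower in Yap_KO were the GTPases Gem, at 51.8 CPM in Yap_KO and 197 CPM in control (0.263, 0.187 to 0.362), and Rem1 (0.367, 0.222 to 0.583), both inhibitors of voltage-gated calcium channels. Higd1a, a hypoxia-induced mitochondrial protein, was at 312 CPM in Yap_KO and 798 CPM in control (0.391, 0.341 to 0.447). In the other cells Gem was at 0.869, Rem1 at 0.315 and Higd1a at 0.917 of control. With 1 library of each genotype, none of these ratios can be told apart from differences between libraries.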

How the data were processed

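The 3 deposited matrices hold UMI counts as whole numbers for each gene in each cell, and per the file headers PISA 1.0 made them. STAR and the mouse build GRCm39 are named in the submitters' processing notes, and cell calling and any correction for free RNA are not given in the sources used here. The libraries held 9439 YAP5SA, 5739 Yap_KO and 7692 control cells with at least 1000 UMIs each, of which 9029, 5201 and 7372 passed the limits of 500 genes and 20% mitochondrial UMIs. Barcodes are running labels: 4347 strings occur in more than 1 library, 8 of them among selected cells, which cannot show shared cells.

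Counts were summed per library and cell class and compared with edgeR 4.0.16 (R 4.3.3; quasi-likelihood fit, TMM, filterByExpr, library as a block, Benjamini-Hochberg adjustment), after a test on simulated data. The 3 libraries are replicates of the difference between cell classes, with both classes of a pair taken from the same library. Alternatives used DESeq2 1.42.0, other filters, other selections, cells thinned to 2000 UMIs, and removal of the 6% of cells with the highest Scrublet scores. Clusters came from Leiden partition at resolution 1 of 40 principal components of 3000 variable genes with 15 neighbours (scanpy 1.11.5, igraph 0.11.9). At resolution 2 the ICC-like cluster held 526 selected cells, 523 of them shared. Intervals (scipy 1.17.1) have a confidence level of 95%, and those and any floor cover counting error only.

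Named genes were the 8 rule genes, up to 20 genes with the largest called differences at 50 CPM or more (10 in each direction against smooth muscle and fibroblasts), the 12 highest and 12 lowest of each genotype ratio, up to 4 members of each gene list, and a set of genes read in any case. Mitochondrial, ribosomal, haemoglobin, Gm-named, Rik-named and sex-linked genes were left out, and Xist and Ddx3y are given only as a check on sex. The selected cells and the gene lists were chosen with earlier results of these data known. Genes that share reads with near-identical copies, such as Ccl21a, are uncertain. A few genes that the rule would name are not reported here.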

Additional observations from a re-analysis of the deposited data

How the results depend on the processing

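Against all other cells, leaving out 1 library gave 97 to 102 genes higher and 233 to 339 lower. Against smooth muscle cells it gave 82 to 224 higher and 93 to 398 lower, and against fibroblasts 295 to 650 higher and 263 to 459 lower. Without the replicate block, that is without pairing both classes of a library, edgeR called 0 genes higher and 0 lower against other cells, 3 and 0 against smooth muscle and 74 and 80 against fibroblasts. With the block 1630 and 2371 genes had an unadjusted p under 0.05 against other cells, and DESeq2's Wald test called 122 and 301. With no filter on low counts 596 genes were lower than in other cells and 423 lower than in smooth muscle, and DESeq2's Wald test called 322 higher than in fibroblasts. With at least 4 rule genes 235 genes were higher and 644 lower than in other cells, of which 105 and 265 were among those called with 3.

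Shares of selected cells in YAP5SA, Yap_KO and control were 2.17%, 2.50% and 3.19% with at least 4 rule genes, 5.40%, 6.25% and 6.93% with Kit not required, 1.34%, 2.03% and 1.67% after thinning, and 2.0%, 2.77% and 2.70% inside the ICC-like cluster, an alternative chosen after seeing the data. With a limit of 20 CPM in place of 50 CPM, 325 genes were 2-fold higher and 193 lower in YAP5SA and 241 higher and 168 lower in Yap_KO. Inside the cluster the YAP5SA counts were 53 and 19. The Yap_KO log2 ratios of Calca and Atp4b reversed there, to -0.32 and -0.17. Of the 48 named genotype ratios, 43 moved by over 1.5 times inside the cluster, 18 with at least 4 rule genes, 14 with a pseudocount of 1 CPM, 3 without predicted doublets and 2 at 10% mitochondrial UMIs. The cause of these changes was not tested. The planned genotype comparison without cells that carry markers of another type was not run, since it left 17, 47 and 3 cells.

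With 1 library per genotype, depth sets only the counting error, and no genotype ratio has a replicate.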
